A study of Homo sapiens with 24 samples.

Results

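The 10 genes described here are *MYOCD*, which encodes myocardin, and 9 genes of the contractile apparatus of smooth muscle and myofibroblasts that are regarded as its targets: *ACTA2*, *ACTG2*, *TAGLN*, *CNN1*, *MYH11*, *MYL9*, *TPM1*, *TPM2* and *CALD1*. They were taken by symbol from the 25702 Entrez gene identifiers for which read counts were deposited, and all 10 passed the filter on low counts that left 13356 genes to be tested. *MYOCD* was chosen by a value of the same samples, its decrease in RIS+shHMGA1 against RIS samples, by which it ranked 2 of 99 genes under an earlier naming rule, and the other 9 were added as its targets. The levels and fold changes of the 10 genes are therefore given as a description, without p-values, and a count of how many of them passed the thresholds is no test of the set.

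The counts come from RNA-seq of IMR90 cells, a line of human diploid lung fibroblasts, in 4 groups of 6 biological replicates. Every sample, controls included, carried a first vector with ER:HRAS(G12V), an oncogenic RAS fused to the oestrogen receptor that 4-hydroxytamoxifen (4OHT) activates. Growing samples had an empty MSCV Vector as the second vector and no 4OHT. The shHMGA1 samples had MSCV miR30 shHMGA1, a retroviral vector with a hairpin against *HMGA1* in a miR30 backbone, and no 4OHT. RIS samples (RAS-induced senescence) had the MSCV Vector and 6 days of 4OHT, and RIS+shHMGA1 samples had the hairpin and 6 days of 4OHT. All groups come from this 1 fibroblast line with a single hairpin construct, and no group received 4OHT without ER:HRAS(G12V).

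Myocardin is a co-activator that does not bind DNA by itself but joins serum response factor (SRF), which sits on short AT-rich elements called CArG boxes in the promoters and introns of cytoskeletal genes. The related factors MRTFA and MRTFB use the same partner and are held in the cytoplasm by monomeric actin. In smooth muscle, and in fibroblasts that become myofibroblasts, SRF and these co-activators drive actins, actin-binding proteins, myosin chains and tropomyosins, which assemble into contractile stress fibres. ELK1 and FOXO4 are known to oppose myocardin, as is KLF4 in vascular smooth muscle.

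CArG boxes were looked for in RefSeq promoter windows, from 250 bases before to 50 bases after a gene's start. The table is of build GRCh38.p14 and its windows were placed on GRCh37, the build of the counts, by exact match. Of the 10 genes, 6 had a window (*ACTA2*, *ACTG2*, *CNN1*, *TPM1*, *TPM2* and *CALD1*), and *MYOCD*, *TAGLN*, *MYH11* and *MYL9* had none. The consensus CArG box reads as itself on the opposite strand, so both strands were covered by a search of 1. It was found in 1 of the 6 genes, *ACTG2*, which had 2. It was also found in 1 of 7 genes among the partners and antagonists of myocardin (*SRF*, which had 2 as well, of which the one farther from the start is shown), in 5 of 14 other smooth muscle genes and in 3 of 13 non-muscle counterparts, and in 438 of all 27305 genes with a window (1.6%) or 169 of the 10412 tested ones (1.62%). The sequences below are of genes whose levels are compared further on, some lower after 4OHT and some at a like level. They were picked after these levels were seen, and the boxes of *FLNA*, *ACTN1*, *LPP* and *TPM4* are not shown. The box is in capitals, with 10 bases on each side, 5′ to 3′ on the strand of the gene.
ACTG2, box from 110 bases before the start, chr2:74120015-74120044 (+): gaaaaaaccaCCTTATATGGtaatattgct
ACTG2, box from 73 bases before the start, chr2:74120052-74120081 (+): cgtcagctggCCTTTTTAGGgactttgttt
SRF, box from 30 bases before the start, chr6:43138967-43138996 (+): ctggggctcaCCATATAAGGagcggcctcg
MYLK, box from 94 bases before the start, chr3:123339470-123339499 (-): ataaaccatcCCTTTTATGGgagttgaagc
SMTN, box from 44 bases before the start, chr22:31480928-31480957 (+): cggggccgggCCATATAAGGaaaagctagg
CNN2, box from 89 bases before the start, chr19:1026508-1026537 (+): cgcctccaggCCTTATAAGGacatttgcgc
ACTG1, box from 94 bases before the start, chr17:79479900-79479929 (-): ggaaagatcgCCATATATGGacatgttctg
A match describes these letters only, and the lack of one says nothing of SRF binding outside the window or of boxes that depart from the consensus.

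Before the results, 2 libraries have to be named. The library labelled growing replicate 4 scored 77.3 on the leading axis of a principal component analysis of log2 CPM (CPM being read counts per 1000000 reads of the normalised library size), where the other growing samples scored −84.3 to −57.2. The library labelled RIS replicate 2 scored −77.1, where the other RIS samples scored 16.8 to 62.1. Each thus lay with samples of the opposite 4OHT treatment. The score of growing replicate 4 was above those of the other RIS samples and within those of RIS+shHMGA1 samples, 52.5 to 84.1. Its *HMGA1* level, 666.9 CPM, was in the range of vector samples. Fold changes that involve growing or RIS samples are given with both libraries and without them (22 samples, 13416 genes tested). Whether the labels of these libraries were exchanged is not stated in the sources used here and was not tested; if they were, all-sample values of growing and RIS samples mix the treatments. RIS+shHMGA1 against shHMGA1 holds neither library, and the log2 fold changes named below for it were within 0.01 of each other in both fits, with standard errors no larger in the 22 samples. *HMGA1* was lower in all 12 samples with the hairpin (54.4 to 261.8 CPM) than in all 12 with the vector (638.9 to 860.9 CPM), so the second vector matched its label in every library. Total counts ran from 8698070 to 23103424. Replicate numbers 5 and 6 also lay apart from 1 to 4 among 4OHT-treated samples on this axis, so fold changes are also given within these numbers. In shHMGA1 samples *HMGA1* had 98.7 to 143.4 CPM in replicates 1 to 4 and 58.1 and 54.4 CPM in 5 and 6. In RIS+shHMGA1 samples it had 196.7 to 261.8 CPM and 60.0 and 75.1 CPM. Its log2 fold change between these groups was 0.73 (not called, as defined below). What the numbers share is not stated in the labels. A fold change is on the log2 scale, ± its standard error, from edgeR's quasi-likelihood fit to all samples, and a gene is said to be called when its Benjamini-Hochberg FDR was under 0.01 and its log2 fold change over 0.58 in size.

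*MYOCD* (Entrez 93649; GRCh37 chromosome 17, 12569207 to 12672266, plus strand) was a gene of low level with the widest range of the 10. Growing replicates 1 to 6 had 23.2, 22.3, 17.3, 1.41, 28.5 and 39.3 CPM, and shHMGA1 replicates had 17.9, 14.4, 12.1, 11.4, 11.7 and 14.2 CPM. RIS replicates had 1.37, 21.6, 1.76, 1.96, 1.78 and 2.92 CPM, and RIS+shHMGA1 replicates had 0.381, 0.787, 0.434, 0.585, 0.602 and 0.496 CPM. All RIS+shHMGA1 samples lay below all samples of the other groups. Without the 2 named libraries the RIS samples lay between the RIS+shHMGA1 samples and both untreated groups, with no overlap on either side. The last group rests on few reads, 31 in all with 3 to 8 in a library, and none of its 6 samples reached the 0.943 CPM that the filter asked for, so *MYOCD* was tested because of its level in the other 3 groups.

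RIS+shHMGA1 against RIS is the contrast that was taken as the reason for the choice of *MYOCD*. Its log2 fold change there was −3.23 ± 0.76 with all samples and −1.82 ± 0.32 without the 2 libraries. Within numbers 5 and 6, which hold neither library, it was −2.01 ± 0.47. Against shHMGA1, RIS+shHMGA1 samples differed by −4.61 ± 0.75 and −4.61 ± 0.25, and within numbers 5 and 6 by −4.46 ± 0.38. For RIS against growing samples it was −2.07 ± 0.58 with all samples, −3.72 ± 0.22 without the 2 libraries and −3.87 ± 0.28 within numbers 5 and 6. In shHMGA1 against growing samples the 3 values were −0.70 ± 0.55, −0.94 ± 0.17 and −1.42 ± 0.23. The direction was thus the same in all 4 comparisons and in each choice of samples, while its size depended on the samples in the 3 comparisons with growing or RIS samples.

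**Figure D1:**
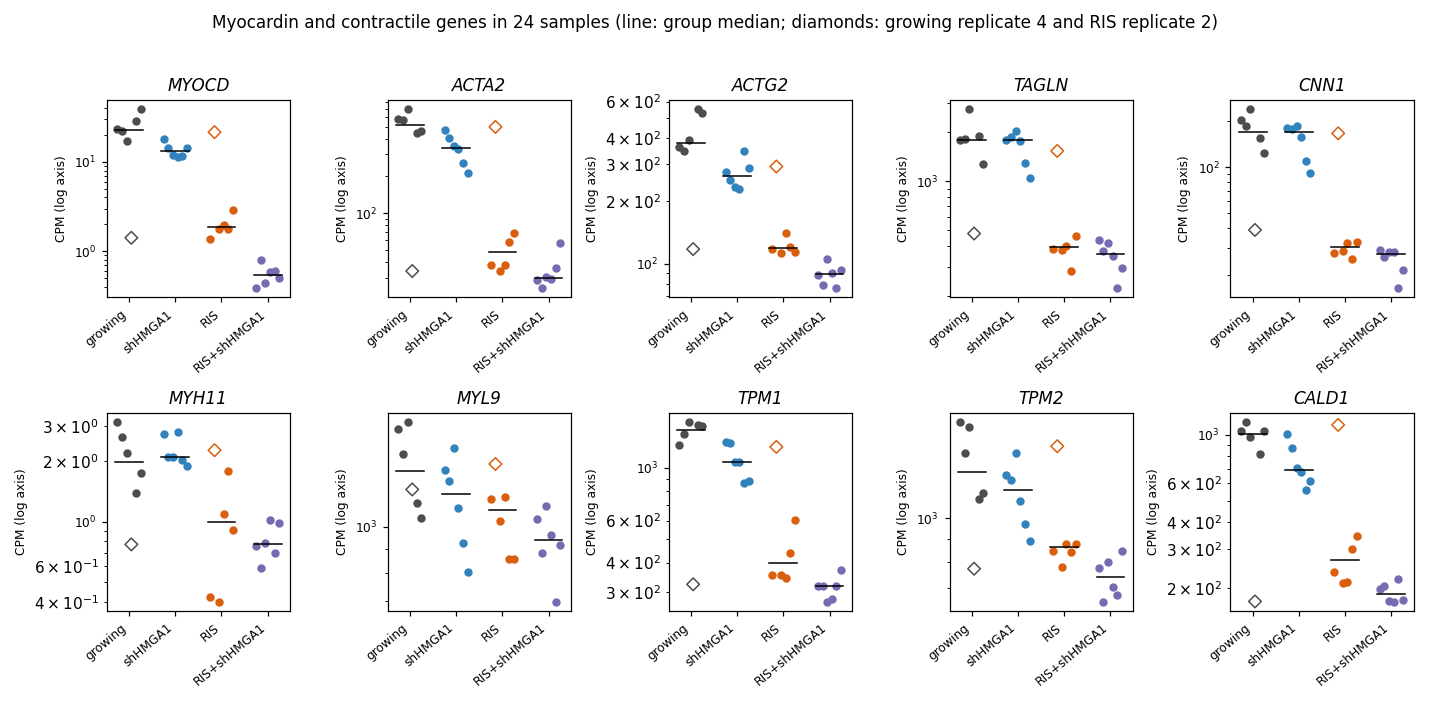
CPM on a log axis for each of the 10 genes (1 panel per gene) in growing, shHMGA1, RIS and RIS+shHMGA1 samples, 6 points per group from replicate 1 at the left to 6 at the right, with a line at the group median and open diamonds for the libraries labelled growing replicate 4 and RIS replicate 2. In 8 panels the diamond of RIS replicate 2 stands apart above the other RIS points, while the panel of *MYL9* shows overlapping groups between 698.3 and 1653.9 CPM.

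*ACTA2* (Entrez 59; chromosome 10, 90694831 to 90751096, minus strand) encodes the alpha-actin of vascular smooth muscle, the usual marker of myofibroblasts. Growing replicates 1 to 6 had 581.5, 571.7, 699.9, 33.9, 446.4 and 462.5 CPM, and shHMGA1 replicates had 476.1, 407.2, 348.0, 332.9, 253.3 and 212.6 CPM. RIS replicates had 37.9, 501.2, 33.8, 38.3, 58.5 and 69.5 CPM, and RIS+shHMGA1 replicates had 28.9, 24.5, 30.1, 29.1, 35.6 and 57.3 CPM. The treated groups overlapped each other, and without the 2 libraries each lay wholly below both untreated groups. Its log2 fold change in RIS+shHMGA1 against shHMGA1 was −3.30 ± 0.65 (−3.30 ± 0.23 without the 2 libraries), and −2.26 ± 0.24 within numbers 5 and 6. For RIS against growing samples it was −1.92 ± 0.61 with all samples and −3.54 ± 0.25 without the 2 libraries. The value of −1.85 ± 0.61 in RIS+shHMGA1 against RIS shrank to −0.47 ± 0.23 once the 2 libraries were left out.

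*ACTG2* (Entrez 72; chromosome 2, 74119441 to 74146992, plus strand), the gamma-actin of visceral smooth muscle with its CArG boxes above, had a narrower range. Growing replicates had 363.8, 347.4, 391.1, 117.3, 552.6 and 530.2 CPM, and shHMGA1 replicates had 274.9, 251.2, 233.6, 228.4, 347.8 and 288.9 CPM. RIS replicates had 117.8, 292.5, 112.1, 140.6, 119.6 and 113.2 CPM, and RIS+shHMGA1 replicates had 87.7, 78.8, 105.5, 89.9, 75.9 and 92.7 CPM. Like *MYOCD*, and unlike the other 8 genes, its RIS+shHMGA1 samples all lay below its RIS samples. The log2 fold change between these groups was −0.76 ± 0.27, and −0.45 ± 0.13 without the 2 libraries. Between RIS+shHMGA1 and shHMGA1 it was −1.61 ± 0.27 (−1.61 ± 0.13), and in RIS against growing samples −1.36 ± 0.27 (−1.86 ± 0.14). In shHMGA1 against growing samples it was −0.50 ± 0.27 (−0.69 ± 0.13).

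The balance of these muscle actins differed between the groups. The ratio of *ACTA2* to *ACTG2* counts within a sample, in which library size cancels, was 1.46 to 1.73 in shHMGA1 replicates 1 to 4, and 0.728 and 0.736 in replicates 5 and 6. With 4OHT it was 0.285 to 0.618 in RIS+shHMGA1 samples, with the values 0.469 and 0.618 in replicates 5 and 6. In growing replicates 1, 2 and 3 it was 1.60, 1.65 and 1.79, in 5 and 6 it was 0.808 and 0.872, and in the library labelled growing replicate 4 it was 0.289. RIS replicates had 0.321, 0.301, 0.272, 0.489 and 0.614, and the library labelled RIS replicate 2 had 1.71. Apart from these libraries, the ratio was lower in each 4OHT group than in the matching untreated group, and on top of this it differed between numbers 1 to 4 and numbers 5 and 6, in opposite directions with and without 4OHT.

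*TAGLN* (Entrez 6876; chromosome 11, 117070086 to 117078180, plus strand) encodes transgelin, an actin-bundling protein, and *CNN1* (Entrez 1264; chromosome 19, 11649582 to 11661138, plus strand) encodes the smooth muscle calponin, which binds actin and restrains myosin. *TAGLN* had 1782.3, 1797.1, 2756.9, 478.4, 1884.0 and 1263.3 CPM in growing replicates and 1794.0, 1856.6, 2016.7, 1763.0, 1293.8 and 1045.2 CPM in shHMGA1 replicates. It had 385.5, 1528.5, 380.5, 403.9, 283.6 and 461.5 CPM in RIS replicates and 434.0, 374.5, 420.6, 346.7, 221.1 and 292.9 CPM in RIS+shHMGA1 replicates. *CNN1* had 201.7, 184.5, 238.6, 39.1, 155.4 and 124.1 CPM in growing and 180.6, 178.2, 185.8, 157.9, 109.7 and 91.0 CPM in shHMGA1 replicates. Both genes separated untreated from treated samples once the 2 libraries were left out, whereas growing and shHMGA1 samples overlapped. *CNN1* had 27.7, 165.8, 28.7, 32.0, 25.2 and 32.4 CPM in RIS replicates and 28.8, 26.1, 28.3, 28.1, 16.3 and 21.5 CPM in RIS+shHMGA1 replicates.

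The log2 fold change of *TAGLN* in RIS+shHMGA1 against shHMGA1 was −2.22 ± 0.38 (−2.22 ± 0.19 without the 2 libraries), and that of *CNN1* was −2.60 ± 0.44 (−2.60 ± 0.19). Between RIS and growing samples they were −1.53 ± 0.37 and −1.60 ± 0.43 with all samples, and −2.31 ± 0.21 and −2.63 ± 0.20 without the 2 libraries. Between the treated groups both were small without the 2 libraries, at −0.14 ± 0.19 for *TAGLN* and −0.23 ± 0.19 for *CNN1*. With all samples these were −0.72 ± 0.37 and −1.07 ± 0.43. The hairpin without 4OHT gave −0.03 ± 0.36 and −0.06 ± 0.41 with all samples, and −0.22 ± 0.19 and −0.27 ± 0.18 without the 2 libraries.

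The myosin genes stood at opposite ends. *MYH11* (Entrez 4629; chromosome 16, 15796992 to 15950885, minus strand), the smooth muscle myosin heavy chain and a marker of the mature cell type, had 0.401 to 3.13 CPM over the 24 samples, which is 4 to 79 reads. It had 3.13, 2.63, 2.21, 0.772, 1.39 and 1.74 CPM in growing replicates and 1.89 to 2.79 CPM in shHMGA1 samples. It had 0.422, 2.27, 0.401, 1.09, 1.78 and 0.913 CPM in RIS replicates and 0.590 to 1.02 CPM in RIS+shHMGA1 samples. Its RIS+shHMGA1 samples all lay below its shHMGA1 samples, with a log2 fold change of −1.49 ± 0.36. As for *MYOCD*, none of the 6 RIS+shHMGA1 samples reached the filter, which is set on total counts before normalisation, so *MYH11* was tested because of its level in the other groups. In RIS against growing samples it was −0.82 ± 0.33 with all samples and −1.29 ± 0.29 without the 2 libraries. *MYL9* (Entrez 10398; chromosome 20, 35169900 to 35179850, plus strand), a regulatory light chain, was abundant, with 1042.0 to 1653.9 CPM in growing, 803.5 to 1462.3 CPM in shHMGA1, 855.8 to 1352.8 CPM in RIS and 698.3 to 1104.8 CPM in RIS+shHMGA1 samples. All 4 groups overlapped, and its log2 fold change was −0.29 ± 0.16 in RIS+shHMGA1 against shHMGA1 and −0.33 ± 0.16 in RIS against growing samples (−0.44 ± 0.17 without the 2 libraries). It was the single gene of the 10 that was not called in RIS+shHMGA1 against shHMGA1.

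*TPM1* (Entrez 7168; chromosome 15, 63334819 to 63364114, plus strand) and *TPM2* (Entrez 7169; chromosome 9, 35681989 to 35690053, minus strand) encode tropomyosins, which line the actin filament, and *CALD1* (Entrez 800; chromosome 7, 134429003 to 134655480, plus strand) encodes caldesmon, which inhibits the myosin ATPase on actin. These genes also make shorter non-muscle isoforms, and counts per gene do not separate them. *TPM1* had 1248.3, 1389.6, 1550.8, 324.5, 1510.3 and 1496.1 CPM in growing replicates and 356.6, 1221.8, 353.9, 344.9, 438.0 and 602.5 CPM in RIS replicates. Its range was 860.4 to 1285.2 CPM in shHMGA1 and 274.6 to 374.0 CPM in RIS+shHMGA1 samples. *CALD1* followed the same order, with 1036.2, 1140.5, 976.0, 173.9, 812.9 and 1037.9 CPM in growing and 236.4, 1108.0, 211.0, 212.6, 300.7 and 345.7 CPM in RIS replicates. It ranged from 559.1 to 1008.2 CPM in shHMGA1 and from 173.6 to 219.8 CPM in RIS+shHMGA1 samples. *TPM2* kept more of its level, with 771.2 to 1635.7 CPM in growing, 890.9 to 1397.5 CPM in shHMGA1, 779.3 to 1446.0 CPM in RIS and 651.5 to 844.8 CPM in RIS+shHMGA1 samples. The lowest growing value and the highest RIS value of *TPM2* are those of the 2 named libraries.

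Log2 fold changes in RIS+shHMGA1 against shHMGA1 were −1.76 ± 0.31 for *TPM1*, −1.95 ± 0.39 for *CALD1* and −0.62 ± 0.18 for *TPM2*. Without the 2 libraries they were, in RIS against growing samples, −1.78 ± 0.15, −1.94 ± 0.16 and −0.70 ± 0.13, against −1.18 ± 0.31, −1.10 ± 0.38 and −0.43 ± 0.18 with all samples. Within numbers 5 and 6 the value of *TPM2* in RIS+shHMGA1 against shHMGA1 was −0.22 ± 0.19, against −0.78 ± 0.24 within numbers 1 to 4. Its call in that comparison lay near the fold limit and was lost in 5 of 6 fits that left out 1 replicate number. In RIS+shHMGA1 against RIS the values with all samples and without the 2 libraries were −0.82 ± 0.31 and −0.42 ± 0.14 for *TPM1*, −1.07 ± 0.38 and −0.45 ± 0.15 for *CALD1*, and −0.35 ± 0.18 and −0.19 ± 0.13 for *TPM2*. The ratio of *TPM1* to *TPM2* counts in a sample was 0.758 to 1.04 in shHMGA1 and 0.343 to 0.489 in RIS+shHMGA1 samples. It was 0.763 to 1.37 in growing and 0.394 to 0.689 in RIS samples, apart from 0.421 in the library labelled growing replicate 4 and 0.845 in the library labelled RIS replicate 2.

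**Figure D2:**
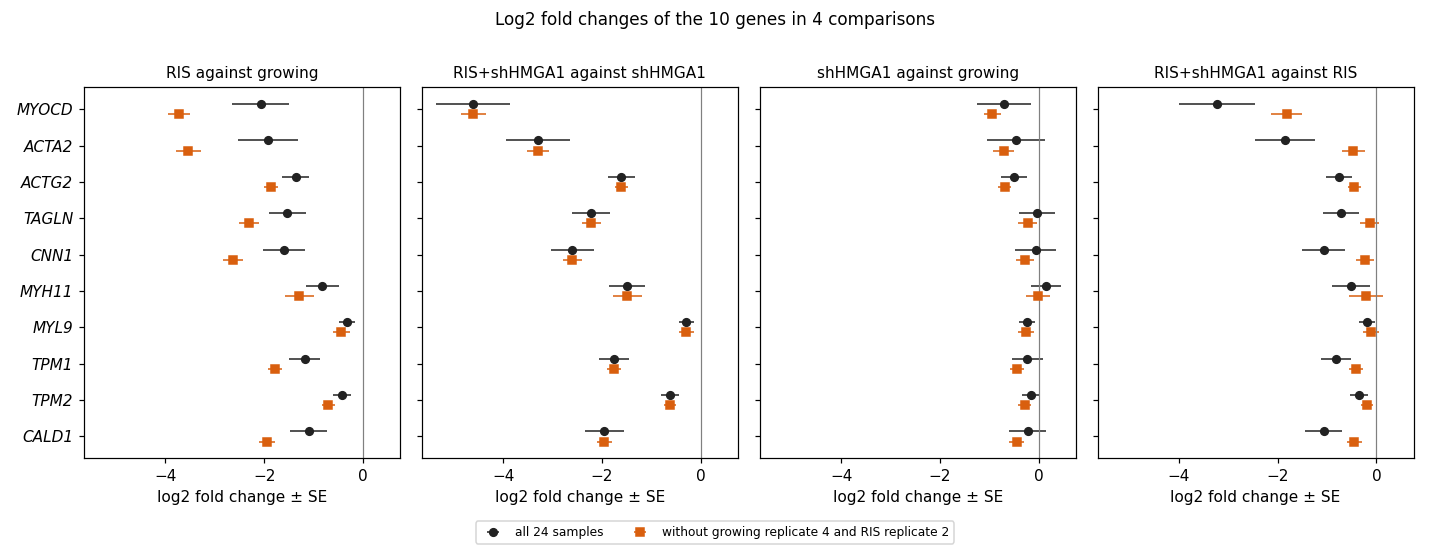
Log2 fold changes ± SE of the 10 genes in 4 comparisons, from edgeR's quasi-likelihood fit to all 24 samples (black circles) and to the 22 samples without the libraries labelled growing replicate 4 and RIS replicate 2 (orange squares). In RIS+shHMGA1 against shHMGA1 the points coincide, from −4.61 for *MYOCD* to −0.29 for *MYL9*, whereas in the comparisons with RIS or growing samples they separate, as for *ACTA2* at −1.92 and −3.54 in RIS against growing.

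Counted over the 10 genes, RIS+shHMGA1 against shHMGA1 had 9 called lower, in a comparison in which 19.5% of all tested genes were called lower, and 9 whose groups did not overlap, against 22.5% of all tested genes. These 9 include *MYOCD* and *MYH11*, which passed the filter only through other groups, and *TPM2*, whose call depended on the samples. The median log2 fold change was −1.86 for the 10 genes and −0.02 for all tested genes. Without the 2 libraries 9 were again called lower (21.9% of all genes). In RIS against growing samples 0 of the 10 were called with all samples, where 0% of all genes were called and 4407 of them had an unadjusted p under 0.05. Without the 2 libraries 9 of the 10, all but *MYL9*, were called lower, against 20.5% of all genes, with a median of −1.90, and 8 had groups that did not overlap (19.3% of all genes, and 0 of the 10 beside 0.21% of all genes with all samples). In shHMGA1 against growing samples 0 were called (0.135% of all genes lower), and 2 without the 2 libraries, *MYOCD* and *ACTG2* (1.39% of all genes lower), with 0 whose groups did not overlap in either (0.554% and 3.61% of all genes). In RIS+shHMGA1 against RIS samples 1 was called lower, *MYOCD*, with and without the 2 libraries (0.786% and 2.5% of all genes). That call was lost when RIS replicate 2 alone or any replicate number but 4 was left out, and the value went to −1.82 without RIS replicate 2. The RIS+shHMGA1 samples of 2 genes, *MYOCD* and *ACTG2*, lay wholly below the RIS samples in both sets of samples, against 5.23% and 6.21% of all genes. Each group of samples enters more than 1 of these comparisons, which are therefore not independent.

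The interaction of hairpin and 4OHT asks whether the difference made by 4OHT was larger with the hairpin than without. It was called for 0 of the 10 genes, with and without the 2 libraries, among 0% and 0.00745% of all genes called. For *MYOCD* it was −2.54 ± 0.95 with all samples and −0.88 ± 0.37 without the 2 libraries. For the other 9 genes it lay between −1.38 and 0.04 with all samples and between −0.20 and 0.24 without them. The median over the 10 genes was −0.68 with 9 of them negative, and 0.06 with 3 of them negative once the 2 libraries were left out.

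Per length of the canonical transcript, the order of the 10 genes could be compared within a group. In growing samples the medians were 1185.6 CPM per kb for *TPM1*, 1064.0 for *TPM2*, 472.7 for *TAGLN*, 469.5 for *MYL9*, 383.3 for *ACTA2*, 251.5 for *ACTG2*, 200.8 for *CALD1*, 113.4 for *CNN1*, 2.66 for *MYOCD* and 0.287 for *MYH11*. The ranges of *CNN1* and *MYOCD* over the 6 samples did not overlap. Those of the other neighbours did, but for *TPM2* and *TAGLN*, *ACTG2* and *CALD1*, *CALD1* and *CNN1*, and *MYOCD* and *MYH11* this rested on the library labelled growing replicate 4 alone. In RIS+shHMGA1 samples the medians were 620.0 for *TPM2*, 336.5 for *MYL9*, 261.5 for *TPM1*, 95.3 for *TAGLN*, 59.2 for *ACTG2*, 37.3 for *CALD1*, 21.9 for *ACTA2*, 18.1 for *CNN1*, 0.112 for *MYH11* and 0.0631 for *MYOCD*. In that group *MYL9* and *TPM1* overlapped, as did *TAGLN* with *ACTG2*, *CALD1* with *ACTA2*, *ACTA2* with *CNN1*, and *MYH11* with *MYOCD*, and the other neighbours did not. Between the 2 groups *TPM1* and *ACTA2* each moved 2 places down and *MYL9* moved 2 places up. These levels depend on the transcript length taken for each gene.

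The other genes of the pathway were no members, and adjusted p-values are given for them. Their lists were chosen with earlier results of these data known, so a count over a list is no independent test of it. Of 8 partners and antagonists of myocardin, 4 fell in RIS+shHMGA1 against shHMGA1 samples and 0 rose, with a median log2 fold change of −0.87, and 6 fell without the 2 libraries, where 19.5% and 21.9% of all tested genes were called lower. *KLF4*, which had 2.98 to 5.23 CPM in shHMGA1 and 0.439 to 0.802 CPM in RIS+shHMGA1 samples, fell by 2.67 ± 0.41 on the log2 scale (adjusted p = 0.000188, in the quasi-likelihood fit of edgeR, adjusted over all tested genes, as are the values that follow). Its RIS+shHMGA1 values rest on 3 to 8 reads in a library and none reached the filter, so *KLF4* too was tested because of its level in the other groups. *MRTFA* had 44.8, 40.2, 43.9, 36.5, 46.1 and 40.4 CPM in shHMGA1 and 17.8, 13.1, 18.2, 13.7, 19.8 and 19.1 CPM in RIS+shHMGA1 replicates, and fell by 1.31 ± 0.27 (adjusted p = 0.000614). *TEAD1*, a DNA-binding factor of the Hippo pathway with target sites in muscle genes, fell by 1.31 ± 0.34 (adjusted p = 0.00293), and *MRTFB* fell by 0.64 ± 0.16 (adjusted p = 0.00199). *SRF* itself had a log2 fold change of −0.51 ± 0.19 (adjusted p = 0.0222) and was not called. Its 6 RIS+shHMGA1 samples (48.6 to 68.8 CPM) all lay below its shHMGA1 samples (70.0 to 94.3 CPM). *ELK1* stood the other way, with 69.4 to 83.4 CPM in RIS+shHMGA1 and 53.1 to 61.7 CPM in shHMGA1 samples and a log2 fold change of 0.45 ± 0.10 (adjusted p = 0.000696), under the limit on the fold. *FOXO4* was low and tended lower, with 1.27 to 2.17 CPM in RIS+shHMGA1 and 1.98 to 2.99 CPM in shHMGA1 samples, which overlap. It was not called in the fit to all samples.

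In RIS+shHMGA1 against RIS samples, with 0.786% of all tested genes called lower (2.5% without the 2 libraries), *MRTFB* was also the gene of this list that fell. It had 10.4, 13.7, 10.9, 7.96, 9.05 and 8.12 CPM in RIS and 6.22, 5.41, 6.25, 5.56, 6.62 and 4.76 CPM in RIS+shHMGA1 replicates, with a log2 fold change of −0.79 ± 0.16 (adjusted p = 0.00479) and of −0.68 ± 0.14 (adjusted p = 0.00196) without the 2 libraries. This call too was lost without RIS replicate 2 alone and without any replicate number but 4. In RIS against growing samples 0 of the 8 genes were called with all samples, and 6 fell without the 2 libraries, with medians of −0.65 and −1.08. Of all tested genes, 0% and 20.5% were called lower in these fits. The largest differences among the 6 genes were −2.02 ± 0.22 for *KLF4* (adjusted p = 3.48e-08), −1.45 ± 0.20 for *TEAD1* (adjusted p = 1.22e-06), −1.26 ± 0.14 for *MRTFA* (adjusted p = 5.45e-08) and −1.14 ± 0.32 for *GATA6* (adjusted p = 0.00383). In the RIS libraries left, *KLF4* rests on 5 to 11 reads and *GATA6* on 6 to 22. With replicate 2 counted, 1 RIS sample of *KLF4* and 3 of *GATA6* reached the filter, so both were tested mainly through the untreated groups. *SRF* fell by 0.63 ± 0.14 in the same comparison (adjusted p = 0.000512). *MRTFB* did not pass, at −0.32 ± 0.14 (adjusted p = 0.0502).

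Of 16 other smooth muscle genes for contraction and attachment, 13 were tested, and 12 fell in RIS+shHMGA1 against shHMGA1 with a median of −1.46, beside 19.5% of all tested genes called lower. *LMOD1*, leiomodin, which nucleates actin filaments in smooth muscle, had 38.2, 30.6, 27.4, 23.5, 10.4 and 9.30 CPM in shHMGA1 and 0.381, 0.688, 1.04, 0.439, 0.502 and 0.397 CPM in RIS+shHMGA1 replicates. Its log2 fold change was −5.26 ± 1.17 (adjusted p = 0.000946), beside −4.61 ± 0.75 for *MYOCD*, a distance within their standard errors. *SYNPO2*, an actin-binding protein of the Z-disc and dense bodies, changed by −3.66 ± 0.76 (adjusted p = 0.000615). *JPH2*, a junctophilin that tethers the sarcoplasmic reticulum, changed by −3.15 ± 0.72 (adjusted p = 0.00113), and *PGM5*, a protein of adherens-type junctions, by −2.86 ± 0.69 (adjusted p = 0.0017). None of the 6 RIS+shHMGA1 samples of *LMOD1*, *SYNPO2* and *PGM5* and 1 of those of *JPH2* reached the filter, so these genes were tested through the other groups. *MYLK*, the kinase that phosphorylates myosin light chains and a gene with a CArG box above, had 488.9 to 825.6 CPM in shHMGA1 and 148.2 to 219.1 CPM in RIS+shHMGA1 samples, a change of −1.94 ± 0.41 (adjusted p = 0.000716).

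*SMTN*, smoothelin, was the tested gene of this list that did not pass, at −0.06 ± 0.11 (adjusted p = 0.671), with 154.9 to 213.9 CPM in shHMGA1 and 150.9 to 209.6 CPM in RIS+shHMGA1 samples; it too has a CArG box in its window. *DES*, *KCNMB1* and *PPP1R14A* did not pass the filter on low counts, at no more than 0.505 CPM in any sample, and *KCNMB1* had 0 reads in all 24. In RIS against growing samples 0 of the 13 were called with all samples and 12 fell without the 2 libraries, with medians of −0.92 and −1.63. Of all tested genes, 0% and 20.5% were called lower in these fits. Without the 2 libraries *LMOD1* changed by −5.30 ± 0.46 (adjusted p = 6.04e-10), *JPH2* by −3.61 ± 0.25 (adjusted p = 9.85e-12), *PGM5* by −3.56 ± 0.39 (adjusted p = 3.07e-08) and *SYNPO2* by −3.51 ± 0.39 (adjusted p = 4.01e-08). With replicate 2 counted, 3 RIS samples of *LMOD1*, 4 of *JPH2*, 1 of *PGM5* and 2 of *SYNPO2* reached the filter. These genes were thus tested mainly through the untreated groups. In shHMGA1 against growing samples without the 2 libraries *JPH2* alone passed, at −0.82 ± 0.18 (adjusted p = 0.00622), and in RIS+shHMGA1 against RIS samples *VCL*, vinculin, alone did, at −0.69 ± 0.17 (adjusted p = 0.00444). With all samples 0 of the 13 were called in either. Of all tested genes, 1.39% and 2.5% were called lower in these comparisons without the 2 libraries, and 0.135% and 0.786% with all samples.

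**Figure D3:**
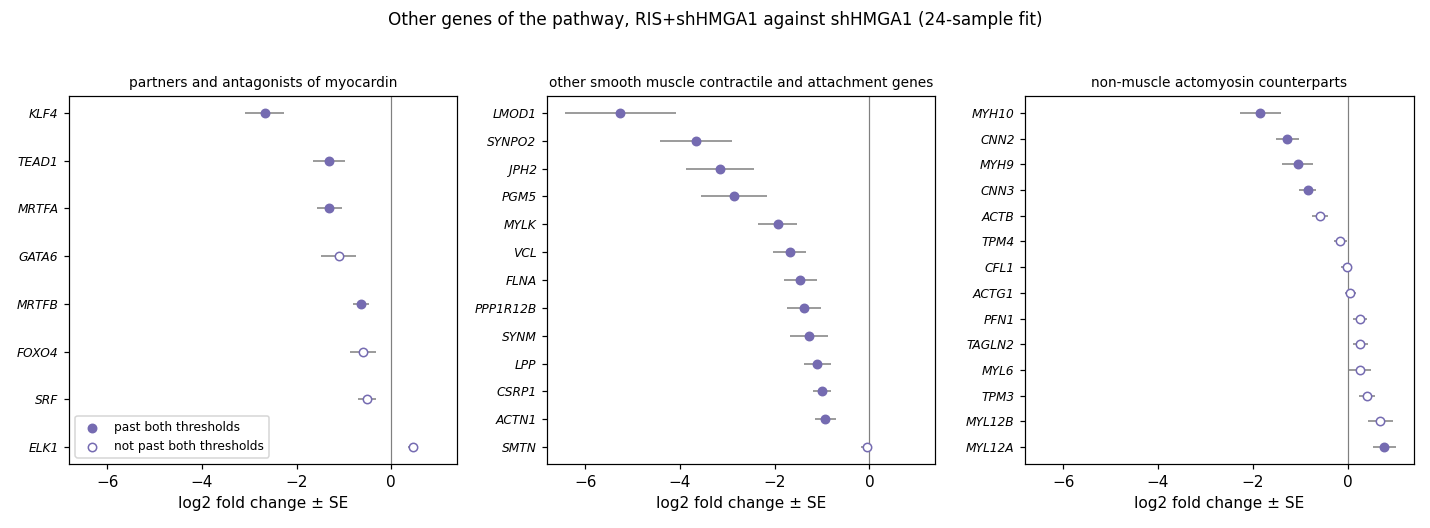
Log2 fold changes ± SE in RIS+shHMGA1 against shHMGA1 samples, from the fit to all 24 samples, for the tested genes of 3 lists: partners and antagonists of myocardin (8), other smooth muscle genes for contraction and attachment (13) and non-muscle actomyosin counterparts (14). Filled points passed an FDR of 0.01 and a log2 fold change of 0.58 in size; the middle panel runs from −5.26 for *LMOD1* to −0.06 for *SMTN*, and the right panel crosses 0, from −1.84 for *MYH10* to 0.78 for *MYL12A*.

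The 14 non-muscle counterparts, which encode actins, myosins and actin-binding proteins not confined to muscle, were mixed. Among them 4 fell, 1 rose and 9 did not pass in RIS+shHMGA1 against shHMGA1 samples, with a median of 0.02, beside 19.5% of all tested genes called lower. *MYH10*, non-muscle myosin IIB, changed by −1.84 ± 0.43 (adjusted p = 0.00143), *CNN2* by −1.27 ± 0.24 (adjusted p = 0.00032), *MYH9*, non-muscle myosin IIA, by −1.05 ± 0.33 (adjusted p = 0.0084) and *CNN3* by −0.84 ± 0.18 (adjusted p = 0.000835). *MYL12A*, a regulatory light chain, rose by 0.78 ± 0.24 (adjusted p = 0.00841). Whether *MYL12A* was called depends on the scaling. Scaled to total counts, which shifted the median of all genes in this comparison from −0.02 to −0.45, 0 of the 14 were called higher and 6 lower, and all 10 members were called lower. Without the 2 libraries *MYL12B* was called higher as well, and the same 4 genes lower. The cytoplasmic actins stood at −0.58 ± 0.17 for *ACTB* (adjusted p = 0.0067) and 0.06 ± 0.12 for *ACTG1* (adjusted p = 0.699), and *TAGLN2*, *TPM3* and *TPM4* at 0.27 ± 0.16, 0.42 ± 0.17 and −0.15 ± 0.14, none past both thresholds. Without the 2 libraries *CNN3* rose in RIS+shHMGA1 against RIS samples by 0.70 ± 0.17 (adjusted p = 0.00453), *MYL12A* by 0.66 ± 0.19 (adjusted p = 0.00915) and *MYL12B* by 0.84 ± 0.21 (adjusted p = 0.00503), and 0 of the 14 passed with all samples. Of all tested genes, 1342 of 13416 were called higher there without the 2 libraries, and 236 of 13356 with all samples. Without the 2 libraries 5 of the 14 fell in RIS against growing samples, among them *MYH10* at −2.26 ± 0.17 (adjusted p = 7.82e-11), *MYH9* at −1.38 ± 0.19 (adjusted p = 1.13e-06), *CNN2* at −1.29 ± 0.10 (adjusted p = 1.99e-10) and *CNN3* at −0.92 ± 0.18 (adjusted p = 0.00013). Of all tested genes, 20.5% were called lower in that fit.

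Ratios of a member to its non-muscle relative within a sample do not depend on scaling. *ACTA2* reached 0.0539 to 0.0853 of the *ACTB* counts in shHMGA1 samples and 0.00807 to 0.0144 in RIS+shHMGA1 samples. *TAGLN* had 1.69 to 2.61 times the counts of *TAGLN2* in shHMGA1 and 0.345 to 0.476 times in RIS+shHMGA1 samples. *CNN1* had 0.393 to 0.646 of the *CNN2* counts in shHMGA1 and 0.156 to 0.265 in RIS+shHMGA1 samples. For *MYL9*, whose own groups overlapped, the ratio to *MYL12A* was 1.34 to 2.17 in shHMGA1 and 0.692 to 1.04 in RIS+shHMGA1 samples, and in the 5 RIS samples left without replicate 2 it was 1.24 to 1.93. In each of these pairs the ratio was thus lower in RIS+shHMGA1 than in shHMGA1 samples, without overlap. For *MYL9* it also holds the rise of *MYL12A*, whose log2 fold change was 0.78. *MYL9* itself was not called, at −0.29 ± 0.16.

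**Figure D4:**
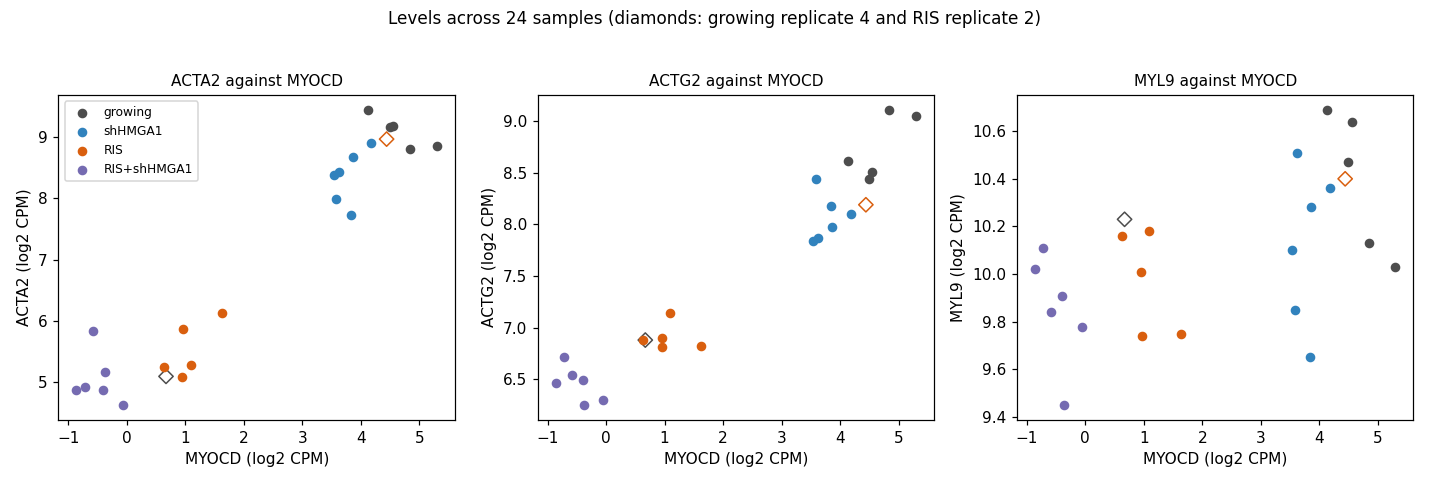
Log2 CPM (prior count 2) of *ACTA2*, *ACTG2* and *MYL9* against that of *MYOCD* in the 24 samples, coloured by group, with open diamonds for the libraries labelled growing replicate 4 and RIS replicate 2. *ACTA2* and *ACTG2* form separate clouds of untreated and treated samples, with each diamond in the cloud of the opposite treatment, while *MYL9* spreads within every group.

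Across the 24 samples, which fall into treated and untreated clusters and share their libraries, Pearson's r of log2 CPM with *MYOCD* was 0.972 for *TPM1*, 0.968 for *CALD1*, 0.963 for *ACTG2*, 0.958 for *ACTA2*, 0.937 for *CNN1*, 0.918 for *TAGLN*, 0.854 for *TPM2*, 0.807 for *MYH11* and 0.533 for *MYL9*. Among the 10745 genes that averaged a log2 CPM of 2 or more, the most alike to *MYOCD* were *POGLUT3* and *RAB3B* (both 0.984), *KLF6* (0.983), *CDH24* (0.982) and *CDK6* (0.979). The most opposite were *DYRK3* (−0.985), *TGIF1* (−0.984), *DDIT3* (−0.978), *BCL2A1* and *CXCL3* (both −0.975). For *ACTA2* the most alike were *CAV1* (0.992), *CCN1* and *TPM1* (both 0.989), and *SLC2A1* and *LIMS2* (both 0.988), and the most opposite were *SQOR* (−0.988), *PITPNC1* (−0.987), *PDE4B* and *ODC1* (both −0.986) and *TNIP3* (−0.985). In the 22 samples the values for the other 9 members ranged from 0.534 for *MYL9* to 0.972 for *TPM1* and *CALD1*. These values describe a separation by treatment that many genes share.

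The label of fibroblasts was checked against markers. The 6 fibroblast genes, among them *COL1A1*, *PDGFRB*, *THY1* and *VIM*, were present in every sample, with a summed level of 12747.3 to 18489.5 CPM in shHMGA1 and 4215.8 to 5586.4 CPM in RIS+shHMGA1 samples, so they moved with the contractile genes, and 5 of the 6 fell in that comparison, beside 19.5% of all tested genes. The striated muscle genes *MYH6*, *MYH7*, *MYOD1* and *MYOG* had 0 reads in all 24 samples, and the tested one of that list, the cardiac actin *ACTC1*, had 0.727 to 2.53 CPM in shHMGA1 and 0 to 0.127 CPM in RIS+shHMGA1 samples, at most 1 read in a library there, and at most 6.35 CPM in any sample. It was called lower with the contractile genes (adjusted p = 0.00186), tested through the groups where it is higher. Endothelial markers (*PECAM1*, *VWF*, *CDH5*) summed to at most 2.01 CPM in a sample. Of 3 immune markers *PTPRC* stayed at no more than 0.688 CPM, and *LAPTM5*, with 0 to 0.337 CPM in shHMGA1 and 1.71 to 6.09 CPM in RIS+shHMGA1 samples, rose (log2 fold change 4.48 ± 1.09, adjusted p = 0.00176). Its shHMGA1 values rest on 0 to 4 reads in a library and none reached the filter, so it was tested through groups where it is higher. *CD68* overlapped between these groups, with 42.2 to 81.5 CPM in shHMGA1 and 55.0 to 74.4 CPM in RIS+shHMGA1 samples. Of 4 epithelial markers *CDH1* stayed at no more than 0.155 CPM, and *KRT8*, with 5.58 to 7.07 and 1.78 to 3.07 CPM in the same groups, fell (−1.41 ± 0.32, adjusted p = 0.00122). *KRT18*, the most abundant of them, stood the other way, with 26.4 to 32.0 CPM in shHMGA1 and 35.5 to 40.9 CPM in RIS+shHMGA1 samples. Its log2 fold change of 0.37 was under the limit on the fold. The summed levels of these lists in RIS+shHMGA1 samples, 57.0 to 79.1 and 38.1 to 43.3 CPM, overlapped those in shHMGA1 samples, 42.7 to 81.6 and 33.3 to 39.5 CPM. The 6 genes of cycling cells summed to 562.2 to 970.9 CPM in shHMGA1 and 88.3 to 134.0 CPM in RIS+shHMGA1 samples, and the 5 inflammatory genes to 6922.7 to 12134.6 and 60070.6 to 108111.5 CPM. Their part in the levels of the contractile genes was not tested, and in bulk samples fewer cells of a contractile type and less RNA per cell cannot be told apart.

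In the GENCODE annotation of GRCh37, exons of *ACTA2* overlap *ACTA2-AS1* and *FAS*, those of *TAGLN* overlap *PCSK7* (2233 bases), those of *MYH11* overlap *NDE1* (1063 bases), those of *TPM1* overlap *TPM1-AS* and those of *MYOCD* overlap *ARHGAP44-AS1*, all on the opposite strand. Exons of *ACTA2* and *TAGLN* also overlap transcripts without a symbol on their own strand. The kit marks the strand, and whether the counting used it is not given in the sources used here, so reads of these stretches are uncertain. The actins are near-identical in their coding sequence, so reads that match more than 1 of them may have been dropped or split in a way the counts do not show.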

How the data were processed

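The authors mapped reads of the 24 RNA-seq samples to hg19 with STAR 2.5.0b, removed adapters and reads of low mapping quality (cutadapt 1.10.0 is also named), and counted reads per gene with Rsubread. The version of Rsubread, the annotation and the strand setting are not given in the sources used here. The deposited values are raw counts for 25702 Entrez identifiers, without normalisation, and 23696 identifiers had a RefSeq symbol.

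Groups were taken from the sample titles. Counts were filtered with filterByExpr by group (minimum count 10), normalised by TMM and fitted with edgeR 4.0.16 (quasi-likelihood test of group means, all 24 samples, R 4.3.3, limma 3.58.1), with p-values adjusted over all 13356 tested genes. The thresholds, an FDR of 0.01 and a log2 fold change of 0.58, are those of the study's methods. CPM used TMM library sizes, and log2 CPM a prior count of 2. The p-values measure the spread between these samples, and total counts of 8698070 or more make counting error small beside that spread for the abundant named genes. This need not hold for *MYOCD*, *MYH11*, *GATA6*, *LAPTM5*, *KRT8* and the other genes noted for few reads. The scripts were tested on simulated data. Counts of all 276 pairs of samples, within and between groups, differed by more than sampling noise (chi-square per degree of freedom 2.89 or more).

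The 10 genes and the lists were chosen with earlier results of these data known. The text names the 10 genes and *HMGA1*, *SRF*, *MRTFA* and *MRTFB*, up to 4 called genes of each list, direction and comparison with the largest change, non-muscle counterparts, and the 5 genes most and least correlated with *MYOCD* and with *ACTA2*. *SMTN*, *ELK1*, *FOXO4*, *VCL*, *GATA6*, the genes that did not pass the filter, and genes set beside a sequence or a marker list were named after their values were seen. Alternatives were RLE normalisation, DESeq2 1.42.0, other filters (no filter, or 1 CPM in 6 samples), the replicate number as a block, fits without 2 libraries or without each replicate number, fits on the samples of the contrast, limma's voom with sample weights, an FDR of 0.05 and a prior count of 0.5. Scaling to total counts, leaving out either library alone and fits within numbers 1 to 4 or 5 and 6 were added after seeing the data.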

Additional observations from a re-analysis of the deposited data

Results flagged for a closer look

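In each group of 6 samples, the highest and lowest CPM of every member and of *HMGA1* were compared with the rest by the gap to the nearest sample divided by the range of the group, and set against Dixon's critical value for 6 samples. Of 44 tests 11 passed, where chance gives about 1 in 20, or 2.2. The library labelled RIS replicate 2 was too high for 8 genes: *MYOCD* (0.923), *ACTA2* (0.924), *ACTG2* (0.842), *TAGLN* (0.857), *CNN1* (0.949), *TPM1* (0.706), *TPM2* (0.857) and *CALD1* (0.85). The library labelled growing replicate 4 was too low for *TPM1* (0.753) and *CALD1* (0.661). *ACTA2* in RIS+shHMGA1 replicate 6 was the remaining one (0.661), at 57.3 CPM against 24.5 to 35.6 CPM in the other 5. The 8 genes of RIS replicate 2 are not independent observations, since they come from 1 library.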

How the results depend on the processing

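In RIS against growing samples, the count of members called was 0. It was 6 with DESeq2, 9 without both named libraries, 9 with voom and sample weights, 6 at an FDR of 0.05 with no limit on the fold, 7 without growing replicate 4, 9 without RIS replicate 2 and 7 within numbers 5 and 6, all lower, and 0 to 7 when 1 replicate number was left out. The count over the other pathway genes, 0, became 3, 23, 24, 8, 15, 20 and 14 in the same order, and 0 to 16 without 1 number. In RIS+shHMGA1 against RIS samples, the count of 1 member (*MYOCD*) was 0 with RLE, without a filter, in the samples of the contrast, without RIS replicate 2, and within numbers 1 to 4 or 5 and 6; it was 2 with DESeq2, 5 at an FDR of 0.05, 4 with total counts, 5 without growing replicate 4, and 0 to 1 without 1 number. The 1 other pathway gene became 7 with DESeq2, 5 without both libraries, 4 with voom, 16 at an FDR of 0.05, 9 with total counts, 11 without growing replicate 4, 0 without RIS replicate 2, 0 within numbers 1 to 4 or 5 and 6, and 0 to 5 without 1 number. In RIS+shHMGA1 against shHMGA1 samples, the 9 members became 8 to 9 without 1 number (*TPM2* lost its call in 5 of 6 such fits) and the 21 other genes 13 to 21; within numbers 1 to 4, which hold both named libraries, both counts were 0, and within numbers 5 and 6 they were 7 and 11. In shHMGA1 against growing samples, 0 members became 2 without both libraries and 1 with voom, and 0 other genes became 1 and 4. The cause of these changes was not tested beyond the libraries left out. Over all tested genes the count moved too, from 0 of 13356 to 5331 of 13416 without both libraries in RIS against growing samples. In RIS+shHMGA1 against RIS samples it moved from 341 to 1677, and in shHMGA1 against growing samples from 36 to 348. Shares of all genes under the other settings are not given here, so the counts under them cannot be read as particular to the listed genes.

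With the replicate number as a block, 4 other pathway genes were called in RIS+shHMGA1 against RIS samples in place of 1, and the 0, 9, 0, 1 and 0 members called in the 5 comparisons kept their counts. The labels give no shared source for a number. Same-numbered samples deviated together by over 0.1 in 18 of 24 pairs (r from −0.594 to 0.828), and 11 pairs were the best match of their number. The deviations were taken from group means that include the 2 named libraries. They do not show that samples of a number are independent. The number was left out of the main fit because no shared culture or day is stated for it. Total-count scaling moved the median of all genes to −0.45 in RIS+shHMGA1 against shHMGA1 and −0.37 against RIS, and the share of calls that were lower from 49.9% to 82.8% and from 30.8% to 90.6%. Of the members' fold changes under all alternatives, 81 became called and 27 lost the call. Of the rest, 823 moved by less than the standard deviation of log2 CPM within the groups compared, and 58 by more. That standard deviation includes the 2 named libraries, so 823 holds sizeable shifts. A change of direction was looked for only where the all-sample fit was called, and 0 were found. Uncalled values could change sign, as the interaction of *ACTA2* did, from −1.38 to 0.24 without the 2 libraries. A prior count of 0.5 moved log2 CPM by at most 0.38 (*MYOCD*). Depth limits *MYOCD*, *KLF4*, *LMOD1*, *SYNPO2*, *JPH2* and *PGM5* in RIS+shHMGA1 samples and *MYH11* throughout. It also limits *LAPTM5* in shHMGA1 samples, *KLF4*, *LMOD1*, *SYNPO2* and *PGM5* in RIS samples, and *GATA6* and *ACTC1* in both 4OHT groups.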
